A study of Mus musculus with 6 samples.

Results

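The 10 genes described here belong to the cytotoxic programme of natural killer (NK) cells and were followed through 6 single-cell libraries of mouse brain. They are Gzma, Gzmb, Prf1, Nkg7, Klra7, Klra8, Ncr1, Ccl5, Xcl1 and Ms4a4b. They were chosen by name, and all 10 were found among the 19361 genes listed in the libraries. Each library is a Drop-seq table, in which single cells are caught in droplets with barcoded beads and the 3′ ends of their transcripts are counted as unique molecular identifiers (UMIs) for 1000 barcodes. All mice were female C57BL/6 of 2 to 3 months, and the series compares brain myeloid cells with and without breast cancer metastases, and with and without Cx3cr1. The 2 metastasis libraries each came from 1 brain, taken 2 to 3 weeks after E0771 mouse mammary carcinoma cells were injected into the heart of wild-type mice. The 2 naive libraries each came from 1 brain of a wild-type mouse without metastases. The Cx3cr1-/- library (labelled Hom_KO, here Cx3cr1-null) and the Cx3cr1+/- library (labelled Het, here Cx3cr1-heterozygous) were 1 each, from 2 pooled brains with E0771 metastases, and lack the gene of the fractalkine receptor of microglia or carry a single copy of it. Cells were enriched on magnetic beads for Cd11b, the Itgam product, which NK cells can carry as well as myeloid cells, so NK cells here are those that passed a myeloid enrichment.

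NK cells are innate lymphocytes that kill cells lacking self molecules or showing stress ligands. Perforin, the product of Prf1, opens the membrane of the target, and granzymes A and B, serine proteases encoded by Gzma and Gzmb, enter and cut proteins that keep the target alive; Nkg7 encodes a membrane protein of the same granules. Klra7 encodes Ly49G, an inhibitory receptor for class I molecules, Klra8 encodes Ly49H, an activating receptor for a cytomegalovirus ligand, and Ncr1 encodes NKp46, an activating receptor. Ccl5 and Xcl1 encode chemokines, released by NK cells, that draw other immune cells, and Ms4a4b encodes a membrane protein of NK and T cells. In the healthy brain NK cells are rare.

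The granule genes carry much of what follows, and the RefSeq promoters (GRCm38.p6, 300 bases around the start of the gene, 5′ to 3′ on the strand of the gene) of Gzma at chr13:113100932-113101231 on the minus strand, Gzmb at chr14:56262285-56262584 on the minus strand and Prf1 at chr10:61297586-61297885 on the plus strand are shown because these 3 genes encode the killing proteins of the granule. The starts are those of RefSeq, and for Gzmb the whole stretch lies upstream of the gene as the mm10 annotation below places it. Capitals mark TGTGGTT (the RUNX letters) and AGGAAG (the ETS letters) on either strand.
Gzma: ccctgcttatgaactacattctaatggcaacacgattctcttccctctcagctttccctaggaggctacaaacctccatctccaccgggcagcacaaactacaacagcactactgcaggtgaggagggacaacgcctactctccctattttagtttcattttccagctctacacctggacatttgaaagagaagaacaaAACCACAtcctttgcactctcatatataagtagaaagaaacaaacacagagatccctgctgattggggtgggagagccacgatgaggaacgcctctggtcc
Gzmb: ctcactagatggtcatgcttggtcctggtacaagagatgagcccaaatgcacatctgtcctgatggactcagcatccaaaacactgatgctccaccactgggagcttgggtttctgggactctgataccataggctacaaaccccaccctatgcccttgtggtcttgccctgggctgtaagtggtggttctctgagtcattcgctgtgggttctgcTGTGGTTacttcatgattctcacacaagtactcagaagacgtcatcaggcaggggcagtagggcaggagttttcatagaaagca
Prf1: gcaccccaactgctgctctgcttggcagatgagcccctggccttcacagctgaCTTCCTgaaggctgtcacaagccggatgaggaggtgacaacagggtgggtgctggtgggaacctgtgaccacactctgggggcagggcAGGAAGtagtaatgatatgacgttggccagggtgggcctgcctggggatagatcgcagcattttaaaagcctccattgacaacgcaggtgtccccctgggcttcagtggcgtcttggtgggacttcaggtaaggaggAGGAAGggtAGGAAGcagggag
Gzma and Gzmb each held the RUNX letters once, and Prf1 held the ETS letters at 4 places and the RUNX letters at none. The RUNX letters were in 5.37% of 27025 promoters of the same length and in 4 of the 9 members with an entry, Gzma, Gzmb, Xcl1 and Ncr1. The ETS letters were in 35.1% of the promoters and in 4 of 9, Xcl1, Klra7, Nkg7 and Prf1, and AGGTGTG (the T-box letters) was in 5.86% of promoters and in Nkg7 alone of the 9. No motif is contained in another, a match describes the sequence only, and Ccl5 is named without a promoter. In mm10 the genes lie on several chromosomes: Gzma at chr13:113093825-113100981, Gzmb at chr14:56258838-56262260, Prf1 at chr10:61297833-61304680, Ncr1 at chr7:4337724-4345164 and Nkg7 at chr7:43437073-43438249. Klra7 at chr6:130218605-130233322 and Klra8 at chr6:130115226-130129898 belong to the same receptor cluster. Over the last 300 bases of the longest transcripts, Klra7 shared none of 251 windows of 50 bases with any of 10 other Klra genes, but Klra8 shared 44 with Klra9 and 24 with Klra3, so Klra8 counts are uncertain to the extent that such reads were assigned to either gene.

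The libraries differed in depth, from 491621 to 2667099 UMIs, and 1976 barcodes were kept, from 76 in the library labelled metastasis 2 to 940 in metastasis 1. A kept barcode had at least 400 genes and under 10% mitochondrial UMIs, and was not in the top 5% of doublet scores of its library. The median mitochondrial share of all barcodes ran from 2.96% to 20.3% between libraries and was over 19% in the library labelled naive 2 and both Cx3cr1 libraries, and the median UMIs of a kept barcode ran from 975 to 3761. Rhox5 went against the labels of replicate 2. This gene, a marker of the carcinoma line, had 1340 UMIs in metastasis 1, 0 in naive 1, 0 in the library labelled metastasis 2 and 27 in the library labelled naive 2, with 11 in Cx3cr1-null and 33 in Cx3cr1-heterozygous. Over all deposited barcodes the whole list of 6 carcinoma genes had 942 CPM (UMIs per 1e+06 UMIs) in metastasis 1 against 62.2 in naive 1, and 12.2 in the library labelled metastasis 2 against 56.7 in the library labelled naive 2, so it did not set the library labelled naive 2 apart from naive 1. Group words in the names of the 4 deposited wild-type tables are also the reverse of the labels, which are followed throughout; for replicate 2, "metastasis 2" and "naive 2" mean the libraries labelled so. Replicate 1 was read on another sequencer (HiSeq 2500) than the other 4 libraries (NextSeq 500). No pair of libraries shared more than 1 barcode.

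Barcodes rich in the NK genes were present in all 6 libraries, in small numbers. Of 1976 kept barcodes, 31 held 4 or more of the 10 genes: 21 in metastasis 1, 3 in naive 1, 1 in the library labelled metastasis 2, 2 in the library labelled naive 2, 2 in Cx3cr1-null and 2 in Cx3cr1-heterozygous. The limit of 4 was set after the distribution had been seen. As shares of kept barcodes these were 2.23% in metastasis 1 (exact Clopper-Pearson 95% interval 1.39 to 3.40), against 0.752% in naive 1 (0.155 to 2.18). They were 1.32% in the library labelled metastasis 2 (0.0333 to 7.11), against 1.17% in the library labelled naive 2 (0.142 to 4.16). The shares were 1.32% in Cx3cr1-null (0.160 to 4.67), against 0.840% in Cx3cr1-heterozygous (0.102 to 3.00). All 6 intervals, which cover counting error only, overlap among kept barcodes. Over all deposited barcodes the interval of metastasis 1 overlapped only that of Cx3cr1-null.

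A barcode of this kind held a median of 25 UMIs of the 10 genes, from 5 to 163, and between 4 and 9 of them. In metastasis 1 the richest had 62 such UMIs of 2548, with Gzma 12, Gzmb 10, Ms4a4b 13, Ccl5 18, Klra8 5, Prf1 2 and Ncr1 1. The barcode of the library labelled metastasis 2 had 163 of 2115 UMIs, among them Ccl5 77, Gzma 50 and Nkg7 21. The richest in naive 1 had 106 of 3514 UMIs, with Ccl5 51, Nkg7 17 and Xcl1 17 but Gzma 3 and Gzmb 1. The richest in the library labelled naive 2 had 9 of the genes in 56 UMIs, with Ccl5 25 and Gzma 11. In Cx3cr1-null 1 barcode had Ccl5 114 and Gzma 20, and the other had Klra7 12 beside Ccl5 8 and Gzma 5. The fuller barcode of Cx3cr1-heterozygous had Ms4a4b 22 and Ccl5 12 with Gzma 0, and the other had 5 of the genes at 1 UMI each among 54 UMIs of microglia markers. Over the 21 barcodes of metastasis 1, Gzma was in all 21 (lowest 1, median 4, highest 41 UMIs), Ccl5 in 20 (0, 5 and 45), Gzmb in 14 (0, 1 and 14) and Ms4a4b in 17 (0, 1 and 13). Klra7 was in 9 of them with at most 3 UMIs, Klra8 in 7 with at most 9 and Xcl1 in 8 with at most 3. The single barcodes differed widely in which of the genes they held most of.

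**Figure D1:**
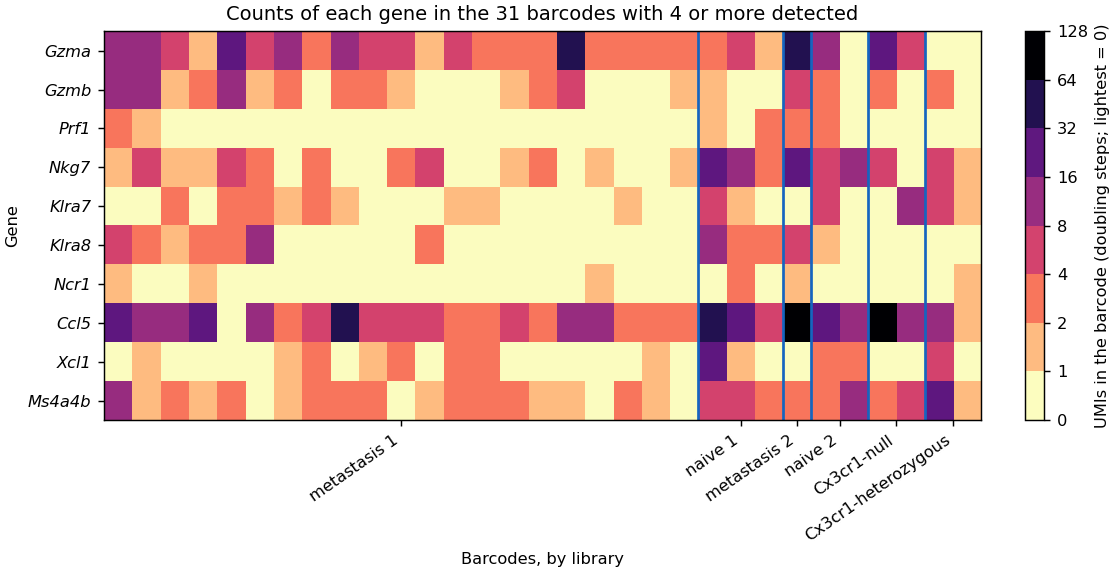
UMIs of each of the 10 genes (rows) in each of the 31 kept barcodes with 4 or more of them (columns, grouped by library with blue lines between), in doubling steps from 0 (lightest) to over 64 (black). Ccl5 was present in 30 and Gzma in 28 of the columns, while Prf1 and Ncr1 were present in 6 each.

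Clustering that left the 10 genes out put most of the same barcodes together. A cluster of 29 barcodes held 26 of the 31, and 28 of its 29 barcodes had 2 or more of the 10 genes. Its leading genes were Klra9, Klra4, Ptprcap, Klre1, Sh2d2a, Klrb1c and Klrk1, in which the Klra and Klr genes are NK receptor genes outside the 10. It had 20 barcodes in metastasis 1 and 3 in naive 1, 1 in the library labelled metastasis 2 and 2 in the library labelled naive 2, and 2 in Cx3cr1-null and 1 in Cx3cr1-heterozygous. The other 5 of the 31 lay elsewhere, 4 in unnamed clusters of metastasis 1 and 1 among microglia-like barcodes of Cx3cr1-heterozygous. The cluster is called NK-like from genes other than the 10. Its mean log2 fold was 2.67 over the NK list and 1.99 over the T cell list, the next highest. Its first gene, Klra9, is the one that shares 44 of 251 windows with Klra8.

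Of 29 accompanying NK genes, 26 had a higher CPM (UMIs of the gene per 1e+06 UMIs of the class or library) in the 31 barcodes than in 998 microglia-like barcodes with fewer than 2 of the 10 genes, which came from clusters named by 12 microglia markers. Klrd1 (CD94) was in 17 of the 31, or 54.8%, against 3.01% of microglia-like barcodes. Klrb1c (NK1.1) was in 16, or 51.6%, against 0.802%, and Klrk1 (NKG2D) was in 16, against 0.902%. Klre1 was in 14 of the 31, or 45.2%, against 0.301%. The NK transcription factors were found in fewer: Eomes in 6 of the 31 and in 0 of the 998, which allows a share of up to 0.301%, and Tbx21 (T-bet) in 6, against 0.10% of microglia-like barcodes. At least 1 of Klrb1c, Klrd1, Klre1 and Klrk1 was in 26 of the 31. The 3 that were not higher were Itga2, at 0 in both, Tyrobp, a signalling adaptor that microglia also use, at 1953 against 2181 CPM, and Itgam, at 415 against 856 CPM and present in 13 of the 31.

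Genes of T cells, the other lymphocytes that share these genes, were rarer. Of 14 T cell genes, 11 had a higher CPM in the 31 barcodes than in microglia-like ones, but only 3 were found in 4 or more of them: Trbc1 in 11, Trbc2 in 6 and Cd3g in 4. Genes of the T cell receptor complex and its coreceptors (the Cd3 chains, Trac, Cd4, Cd8a and Cd8b1) had 0 UMIs in 27 of the 31 and 3 or more in 2. The first of these 2, in the library labelled naive 2, had 25 such UMIs, 0 of Klrb1c, Klrd1, Klre1 and Klrk1, Nkg7 10, Ms4a4b 9 and neither granzyme. The second, in Cx3cr1-heterozygous, had 9 such UMIs beside 7 of those Klr genes. Of 5 genes of tissue-resident innate lymphoid cells, 3 were higher in the 31 barcodes, none in more than 2 of them, and Itga1 and Cd200r1 were at 0. Microglia markers were lower throughout: 0 of 12 had a higher CPM in the 31 barcodes, each of which held a median of 3 of the 12 (0 to 10). Of the other lists, 7 of 10 macrophage and monocyte genes, 4 of 10 dendritic cell genes, 2 of 6 neutrophil genes, 5 of 6 carcinoma genes, 0 of 5 B cell genes, 2 of 4 endothelial genes and 1 of 4 ependymal and choroid plexus genes had a higher CPM in the 31 barcodes, 21 of which came from metastasis 1. The part of RNA from other cells in these counts was not tested.

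**Figure D2:**
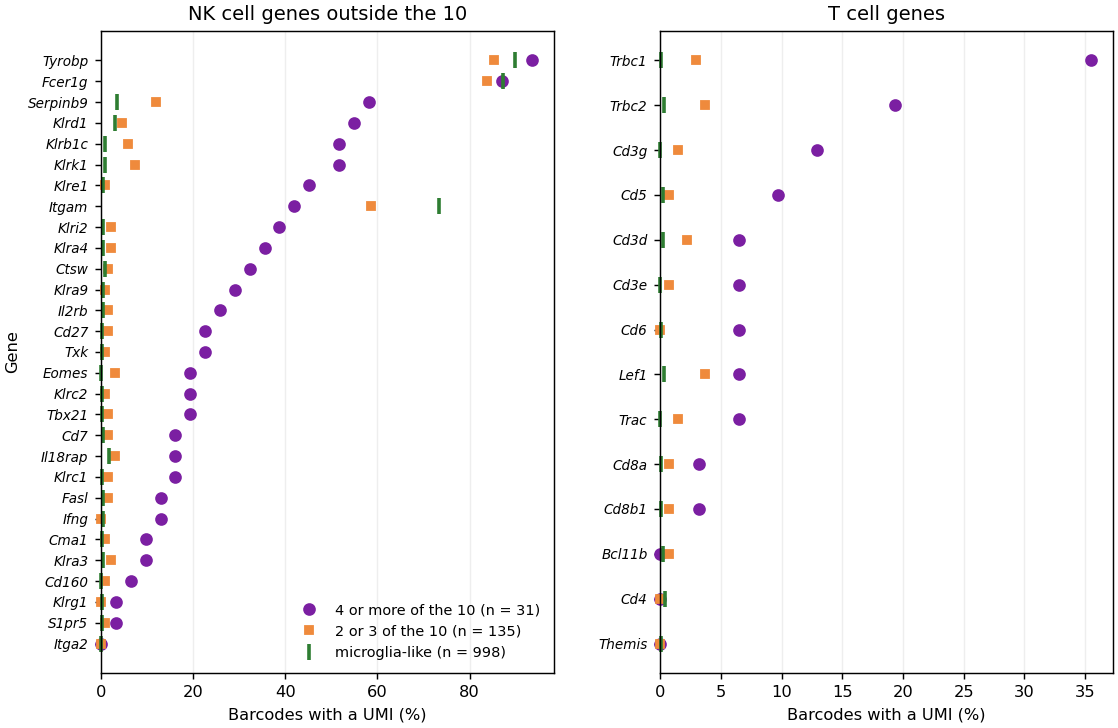
Share of barcodes with a UMI of each of 29 NK cell genes outside the 10 (left) and 14 T cell genes (right, on a narrower axis), for the 31 barcodes with 4 or more of the 10 genes (purple circles), 135 with 2 or 3 (orange squares) and 998 microglia-like barcodes with fewer than 2 (green bars). Klrd1 reached 54.8%, 4.44% and 3.01%, and Trbc1 reached 35.5%, 2.96% and 0.10%.

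Of their UMIs in kept barcodes, the granule genes had the larger part in the 31. Gzma had 366 UMIs in kept barcodes, 68.9% of them in the 31, and was found in 90.3% of these (95% interval 74.3 to 98.0), against 1.40% of microglia-like barcodes (0.769 to 2.34). Gzmb had 137 kept UMIs, 51.1% of them in the 31, and was in 61.3% of these, against 0.902% of microglia-like barcodes. Nkg7 had 155 kept UMIs, 69.0% in the 31, and was in 71.0%, against 0.601%. Prf1 was sparse: 23 kept UMIs, 52.2% of them in the 31, and present in 19.4% of these, against 0.10%. The median depth was 1860 UMIs in the 31 barcodes, and microglia-like barcodes had library medians from 945 to 3467. Of all UMIs in the deposited tables, barcodes outside the filter included, the 31 held 50.4% of Gzma, 29.4% of Gzmb, 48.2% of Nkg7 and 32.4% of Prf1, and barcodes outside the filter held 26.8%, 42.4%, 30.2% and 37.8% of these genes. Since the 31 barcodes were chosen by these genes, the shares in them are a description. Both granzymes were found together in 27 kept barcodes, 18 of them among the 31.

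The receptor genes were each found in fewer barcodes than Gzma, Nkg7 or Ccl5. Klra7 was in 15 of the 31 with 41 UMIs and Klra8 in 12 with 42 UMIs, against 0.401% and 0.200% of microglia-like barcodes. At least 1 of them was in 21 of the 31 and both in 6, so 10 barcodes had neither. Ncr1, the receptor most specific to NK cells among the 10, had 8 UMIs in kept barcodes, all in 6 of the 31. Of these 6, 1 was the microglia-like barcode of Cx3cr1-heterozygous, with 1 Ncr1 UMI, which is not among the 998. In the 998 microglia-like barcodes with fewer than 2 of the genes Ncr1 had 0, which allows a share of up to 0.301%. Of its 23 UMIs in the deposited tables, 65.2% lay outside the filter. No barcode with 2 or 3 of the genes held both Klra7 and Klra8, so counting them as 1 gene could not change a share with 2 or more.

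Of the chemokine genes, Ccl5 was spread the most. Xcl1 had 84 kept UMIs, 51.2% of them in the 31 barcodes, but 16 were in 1 microglia-like barcode of naive 1 that had 1005 UMIs and none of the other 9 genes. Ccl5 had 1702 kept UMIs, 29.0% of them in the 31, where it was in 96.8% of barcodes, and it was in 11.1% of microglia-like barcodes (9.24 to 13.2) and in 31.3% of the other kept barcodes with fewer than 2 of the genes (28.1 to 34.6). Its level was 8926 CPM in the NK-like cluster and 6229 CPM in a dendritic-cell-like cluster of 14 barcodes led by Ccr7 and Il12b, 13 of which held it. A single barcode of that cluster, in the library labelled naive 2, had 150 Ccl5 UMIs, 55.8% of the kept Ccl5 of its library. Ms4a4b, with 167 kept UMIs, was in 27 of the 31 and in 0.501% of microglia-like barcodes.

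**Figure D3:**
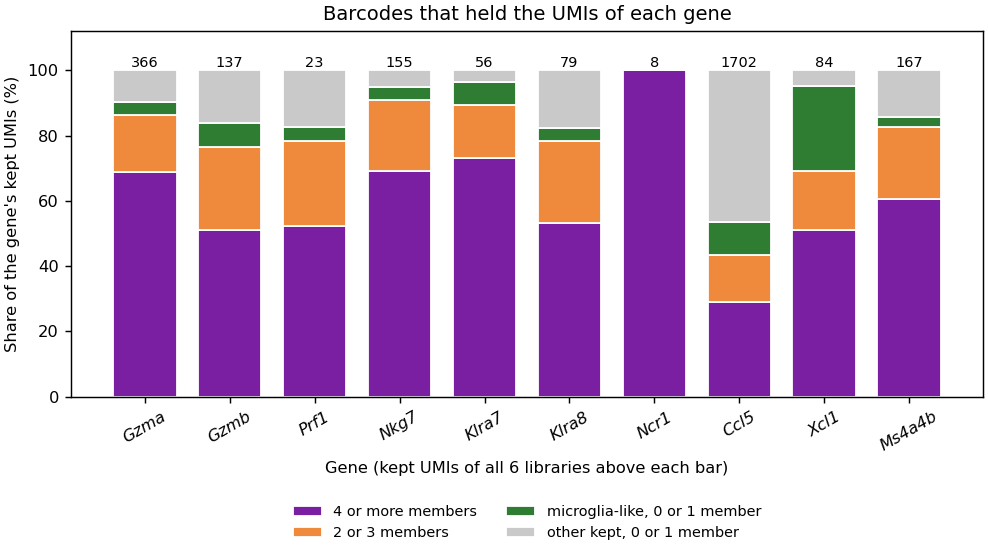
Share of the kept UMIs of each gene (number above the bar, all 6 libraries) that lay in barcodes with 4 or more of the 10 genes (purple), with 2 or 3 (orange), in microglia-like barcodes with 0 or 1 (green) and in other kept barcodes with 0 or 1 (grey). The purple part ran from 29.0% for Ccl5 to all 8 UMIs of Ncr1.

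The lower limit of 2 genes took in many more barcodes, and most of the added ones had little else of the NK kind. At 2 or more of the 10 genes, 166 kept barcodes were counted, or 8.40% (7.22 to 9.71). Of the 113 with exactly 2, 92 held Ccl5 and 70 had exactly 2 UMIs of the genes in all. The 135 with 2 or 3 genes had a median of 2 such UMIs, against 25 in the 31. Klrk1 was in 10 of the 135, Klrb1c in 8, Klrd1 in 6 and Klre1 in 1. At least 1 of these 4 Klr genes was in 16 of the 113 with exactly 2 and in 6 of the 22 with 3. Of 1303 kept barcodes with 0 of the 10 genes, 78 held at least 1 of the 4 Klr genes. None of the 113 with exactly 2 was in the NK-like cluster, against 2 of 22 with 3 and 5 of 7 with 4. Of all 166, 28 lay in the NK-like cluster, 31 were microglia-like and 107 lay elsewhere.

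By library, 130 barcodes had 2 or more of the genes in metastasis 1, or 13.8% (11.7 to 16.2), against 4 in naive 1, or 1.00% (0.274 to 2.55). In replicate 2 there was 1 barcode, or 1.32% (0.0333 to 7.11), in the library labelled metastasis 2, against 6, or 3.51% (1.30 to 7.48), in the library labelled naive 2. The mean share was 7.57% in metastasis and 2.26% in naive libraries (n = 2 each), and the difference of 5.32 points did not pass an exact two-sided permutation test (p = 0.667, where the smallest possible p is 0.33). Without metastasis 1 the difference was -0.940 points. In Cx3cr1-null 11 barcodes, or 7.24% (3.67 to 12.6), had 2 or more, against 14, or 5.88% (3.25 to 9.67), in Cx3cr1-heterozygous; with 1 library each this difference of 1.35 points has no test. Thinned to 800 UMIs, with barcodes under 800 left out, the shares were 5.54% in metastasis 1 against 0.631% in naive 1. In replicate 2 they were 1.92% (1 of 52 barcodes) in the library labelled metastasis 2 against 1.24% (2 of 162) in the library labelled naive 2. They were 2.06% in Cx3cr1-null against 0.435% in Cx3cr1-heterozygous. The order in replicate 2 turned under thinning. The library labelled metastasis 2 kept its 1 barcode while 24 of its 76 kept barcodes were left out, which raised its share. Both thinned metastasis shares lay above both naive ones (means 3.73% and 0.933%, difference 2.80 points, exact two-sided permutation p = 0.33, the smallest possible).

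**Figure D4:**
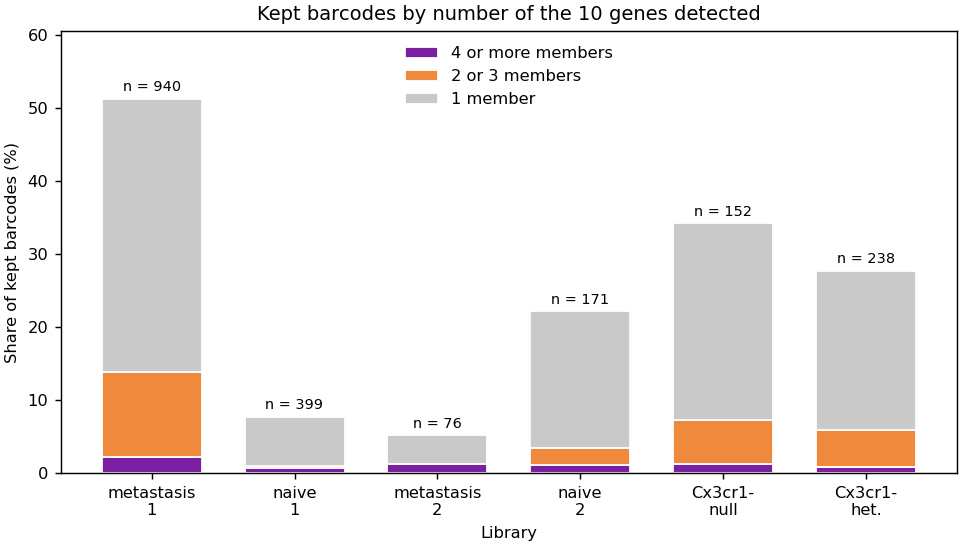
Share of kept barcodes with 1 (grey), 2 or 3 (orange) and 4 or more (purple) of the 10 genes in each library, with the number of kept barcodes above the bars. Metastasis 1 had 13.8% with 2 or more, against 1.00% in naive 1, and the purple part stayed between 0.752% and 2.23% in all 6 libraries.

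The 4 most frequent pairs of the genes in the same barcode all included Ccl5. Gzma and Ccl5 were together in 61 kept barcodes, 27 of them among the 31, Ms4a4b and Ccl5 in 49, Nkg7 and Ccl5 in 46 and Gzmb and Ccl5 in 39. Of the pairs without Ccl5, Gzma and Ms4a4b were together in 30 barcodes, 24 of them among the 31, and Gzmb and Ms4a4b in 16, all among the 31. Not counting Ccl5 as a member left 6.17% of kept barcodes of metastasis 1 and 1.26% of Cx3cr1-heterozygous with 2 or more.

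Among genes outside the 10, those with the largest share of their UMIs in barcodes with 2 or more of the genes were again lymphocyte genes. Over 11145 genes with at least 20 kept UMIs, these 166 barcodes held 10.9% of all kept UMIs. They held 87.2% of the UMIs of Klre1, 83.7% of Klra9, 71.4% of Eomes, 71.4% of Trbc1, 70.6% of Sh2d2a (a T cell and NK cell signalling adaptor) and 63.2% of Trbc2. Klrb1c (62.7%), Klri2 (62.0%), Lck, a kinase of lymphocyte receptors (60.0%), and Samd3 (60.0%) completed the 10 highest, each over 9 to 25 of the 166 barcodes. These shares describe likeness over 1976 barcodes that share libraries and depth.

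By the labels, granzymes made up more of the UMIs of the 10 genes in the NK-like barcodes of the metastasis libraries than in those of the naive ones, in the few barcodes there are. In the NK-like cluster, Gzma and Gzmb together had 209 of the 496 UMIs of the 10 genes in metastasis 1, or 42.1% (37.8 to 46.6), against 9 of 169, or 5.33% (2.46 to 9.87), in naive 1. In replicate 2 they had 54 of 163, or 33.1% (26.0 to 40.9), in the 1 barcode of the library labelled metastasis 2, against 13 of 90, or 14.4% (7.92 to 23.4), in the 2 barcodes of the library labelled naive 2. Of those 2 barcodes 1 is the one with 25 UMIs of the Cd3 chains, Trac, Cd4 and Cd8 genes, and without it the share was 23.2% (13 of 56). Both metastasis values lay above both naive values by the labels, but with the labels of replicate 2 exchanged they would overlap. They come from 20 and 1 against 3 and 2 barcodes, and UMIs of 1 barcode are not independent cells. The share was 15.3% in Cx3cr1-null (27 of 177, 2 barcodes), against 3.92% in Cx3cr1-heterozygous (2 of 51), whose 1 barcode held 9 UMIs of the same T cell genes beside 7 of the Klr genes. Other genes took the rest: Ccl5 had 75 and Nkg7 30 of the 169 UMIs in naive 1. The share also moves with these other genes. In the cluster Nkg7 had 639 CPM in metastasis 1, against 5441 in naive 1, but in replicate 2, by the labels, 9929, against 4222. Gzma itself had 4049 CPM (3431 to 4746) in metastasis 1, against 1451 (626 to 2859) in naive 1. In replicate 2 it had 23640 CPM, against 3096 (1545 to 5540), and the latter interval overlapped that of metastasis 1. These shares and levels were looked at after the values were known and were not tested.

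Summed over all kept barcodes, the 10 genes had these levels. Gzma had 101 CPM in metastasis 1 and 336 in the library labelled metastasis 2, against 10.8 in naive 1 and 29.8 in the library labelled naive 2. Gzmb had 46.1 and 26.9 CPM in the metastasis libraries, against 4.04 and 5.68 in the naive ones, and Klra8 had 22.5 and 26.9, against 17.5 and 2.84. For these 3 genes and Prf1 (4.81 and 26.9, against 4.04 and 4.26) both metastasis libraries were above both naive ones by the labels. With the labels of replicate 2 exchanged none of these 4 would be ordered so, and Ms4a4b and Klra7 would. This exchange and the levels over all deposited barcodes were looked at after the data were seen. The groups overlapped for Nkg7 (25.3 and 141, against 41.7 and 24.1 CPM), Ms4a4b (31.7 and 20.2, against 17.5 and 25.6) and Ccl5 (350 and 538, against 179 and 382). In the library labelled metastasis 2 all 50 kept Gzma UMIs, all 4 of Gzmb, all 4 of Klra8 and all 21 of Nkg7 came from 1 barcode. The same barcode held 77 of the 80 kept Ccl5 UMIs and 3 of the 4 of Prf1, so the values of these genes there are not separate results. In a sum over barcodes, fewer NK cells and less RNA per NK cell cannot be told apart.

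edgeR's quasi-likelihood test over 7885 genes called 0 genes between metastasis and naive libraries (0% of genes at an adjusted p under 0.05; 1.94%, or 153, at an unadjusted p under 0.05; DESeq2 also called 0). Of the 10 genes 6 passed the filter on low counts, and Klra7, Xcl1, Prf1 and Ncr1 did not. Gzma had a log2 change of 3.33 ± 0.84 (SE; unadjusted p 0.00777, edgeR adjusted p 0.996) and Gzmb of 2.89 ± 0.68 (unadjusted p 0.00569, edgeR adjusted p 0.996). Nkg7, Ms4a4b, Ccl5 and Klra8 had fitted values of 1.09, 0.28, 0.60 and 1.08 with the same adjusted p. Of all genes tested 15.5% had both metastasis libraries above both naive ones. By CPM 4 of the 10 genes did, among them Prf1, which was not tested. The 2 shares cover unlike sets of genes and are not to be compared. A gene can pass the filter through the group where it is high, so no count over the 6 is given. Without the filter Xcl1 had a fitted value of -1.82 and Klra7 of -0.33. With 1 library left out at a time the value of Gzma ran from 2.22 (without the library labelled metastasis 2) to 4.11 (without the library labelled naive 2), and that of Klra8 from 0.28 (without the library labelled naive 2) to 3.04 (without naive 1). Over all deposited barcodes Gzma had 2.36, Gzmb 1.82 and Klra8 0.75 (edgeR adjusted p 0.9997 each). Without a filter on low counts edgeR called 100 genes, among them Gzma, higher in metastasis (log2 change 3.29, adjusted p 0.00131). With the 166 barcodes left out of the sums, Ccl5 alone of the 10 was tested and its fitted value was -0.39 (edgeR adjusted p 0.9999).

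The 4 genes under the filter on low counts were not compared by this test. Ncr1 had 3 and 1 kept UMIs in the metastasis libraries, against 3 and 0 in the naive ones, and Prf1 had 12 and 4, against 3 and 3. Xcl1 had 27 and 0, against 34 and 6, and Klra7 25 and 0, against 5 and 8. In the Cx3cr1 libraries Gzma had 54.9 CPM in kept barcodes of Cx3cr1-null, 20 of its 31 UMIs from 1 barcode, against 3.54 in Cx3cr1-heterozygous, and over all deposited barcodes 47.6 CPM, against 16.8. Klra7 had 21.3 CPM in Cx3cr1-null, all in 1 barcode, against 5.31 in Cx3cr1-heterozygous. Ccl5 had 305 CPM in Cx3cr1-null, 66.3% of it from 1 barcode, against 156 in Cx3cr1-heterozygous, and over all deposited barcodes 299 CPM, against 155. Xcl1 had 5.31 CPM in kept barcodes, against 12.4, but over all deposited barcodes the order turned, to 19.8 against 8.84 CPM. With 1 library each there is no test.

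Single stray UMIs of the genes were found in microglia-like barcodes of all 6 libraries, and most were Ccl5. After 31 microglia-like barcodes with 2 or more of the genes were set aside, 156 of 998, or 15.6% (13.4 to 18.0), held 1 of them, 127 with exactly 1 UMI. Ccl5 carried 111 of the 156. The median depth of microglia-like barcodes was 1628 UMIs in metastasis 1, 1209 in naive 1, 945 in the library labelled metastasis 2, 2633 in the library labelled naive 2, 2850 in Cx3cr1-null and 3467 in Cx3cr1-heterozygous. In the other kept barcodes the share with 1 gene was 43.2%. Gzma was the gene found in 14 of the 998 barcodes, Gzmb in 9, Nkg7 in 6 and Ms4a4b in 5. The microglia-like barcodes of metastasis 1 lay mostly in a cluster led by Ccl3 and Atf3, which was named against the rest of that library. Those of naive 1 and of the library labelled metastasis 2 lay mostly in clusters led by Csn1s2a and Egr1. Those of the library labelled naive 2 and of both Cx3cr1 libraries lay mostly in a cluster led by Ttr and Npl. The 12 microglia markers had 7071 CPM in the microglia-like barcodes of metastasis 1, against 25130 in naive 1. They had 27330 CPM in the library labelled metastasis 2, 18960 in the library labelled naive 2, 17570 in Cx3cr1-null and 17720 in Cx3cr1-heterozygous. By these markers the class in metastasis 1 was unlike that of the other libraries, which limits the comparison of its shares.

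The share with a stray gene was 33.1% (49 of 148; 25.6 to 41.3) in metastasis 1, against 4.90% (18 of 367; 2.93 to 7.64) in naive 1. It was 4.17% (3 of 72; 0.868 to 11.7) in the library labelled metastasis 2, against 14.3% (17 of 119; 8.55 to 21.9) in the library labelled naive 2. The means of 18.6% in metastasis and 9.60% in naive libraries differed by 9.04 points, which did not pass an exact two-sided permutation test (p = 1, smallest possible 0.33), and without metastasis 1 the difference was -5.43 points. Cx3cr1-null had 27.8% (19.9 to 37.0), against 20.9% (15.2 to 27.6) in Cx3cr1-heterozygous. Without Ccl5 the shares were 8.11% in metastasis 1, against 0.817% in naive 1, and 1.39% in the library labelled metastasis 2, against 7.56% in the library labelled naive 2. They were 7.83% in Cx3cr1-null, against 6.21% in Cx3cr1-heterozygous.

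**Figure D5:**
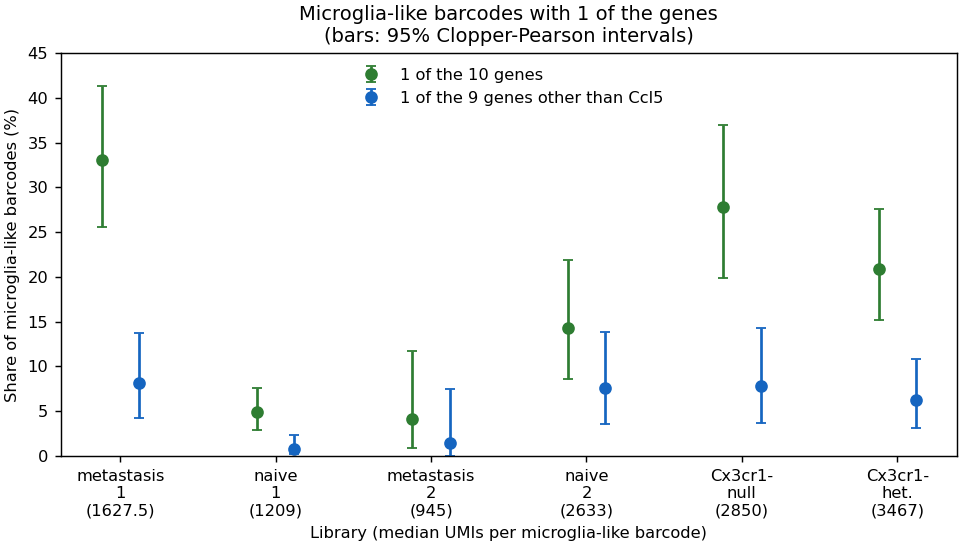
Share of microglia-like barcodes with fewer than 2 of the 10 genes that held 1 of them (green) or 1 of the 9 other than Ccl5 (blue) in each library, with exact 95% intervals and the median UMIs per barcode under each library. The green points ran from 4.17% in the library labelled metastasis 2 to 33.1% in metastasis 1, and the blue points from 0.817% to 8.11%.

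Ccl5 had 172 of the 237 stray UMIs of the 10 genes, and 16 of the 22 Xcl1 ones were those of the single barcode of naive 1. Ccl5 had 223 CPM in the cluster that holds 164 of the 168 microglia-like barcodes of metastasis 1. It had 22.8 to 71.6 CPM in the other 3 microglia-like clusters. The 223 CPM includes 20 barcodes with 2 or 3 of the genes. Other barcodes of metastasis 1 had 327.5 CPM in the cluster led by mt-Rnr2, 408 in that led by Spp1 and 581.4 in that led by Cd74. Ccl5 was higher still in its NK-like and dendritic-cell-like barcodes, and lower than 223 CPM in its carcinoma-like and neutrophil-like ones. In a fit over summed microglia-like barcodes edgeR called 0 of 5700 genes between metastasis and naive libraries (0% at an adjusted p under 0.05; 3.61%, or 206, at an unadjusted p under 0.05; DESeq2 called 1, or 0.0175%). Ccl5 was the only one of the 10 genes tested there, with a log2 change of 2.03 ± 0.80 (SE; unadjusted p 0.0351, edgeR adjusted p 0.9904), and its groups overlapped. Without metastasis 1 it was -0.51, and without the library labelled metastasis 2 it was 2.67 (edgeR adjusted p 0.000776), in a fit that called 337 of 6932 genes and in which the lone metastasis library is assumed to vary like the naive ones.

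Genes whose products pair with those of Xcl1 and the Ly49 genes were read from the same barcodes. Xcr1, the receptor for the Xcl1 product that marks cross-presenting dendritic cells, had 0 UMIs in the 31 barcodes, against 1 in the microglia-like ones. H2-K1 and H2-D1 are class I genes, whose products some Ly49 receptors can read. H2-K1 had 3876 CPM in the 31 barcodes, against 1551 CPM in microglia-like ones, and H2-D1 had 3738, against 1654.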

How the data were processed

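The 6 Drop-seq libraries were used as the authors deposited them: tables of UMI counts per gene and barcode, 1000 barcodes each, aligned with STAR and handled in Seurat on mm10, per the submitters' processing notes, with versions not given in the sources used here. Counting intervals and floors of 3 counts cover counting error only. Barcodes with at least 400 genes and under 10% mitochondrial UMIs were kept, and the top 5% of Scrublet scores in each library were removed as likely doublets. Kept barcodes were clustered with scanpy 1.11.5 (2000 variable genes without the 10 members, 30 components, 15 neighbours, Leiden resolution 1) and named from marker lists. A named cluster had a mean log2 fold of at least 1 over the list (20 CPM added) with at least 3 markers, in 5% of its barcodes or more, against the other barcodes, or against the rest of its own library where 90% of it came from 1 library. These naming limits were set after the clusters were seen. Counts summed per library were tested with edgeR 4.0.16 (TMM, quasi-likelihood, Benjamini-Hochberg over all genes, threshold 0.05) after a check on simulated counts; DESeq2 1.42.0 was an alternative. The SE of a log2 change was taken as its size over the square root of F. Libraries of a group are separate brains, and barcodes were not used as replicates. Metastasis and naive libraries share replicate numbers, which also mark the sequencer. Same-numbered libraries deviated in opposite directions (r = -0.38 over 7885 genes for kept and -0.14 over 5700 genes for microglia-like barcodes), so the numbers were not taken as pairs. The members and lists were chosen with earlier results of these data known. Named genes were the 10 members, the genes of the lists, leading genes of clusters and the 10 others with the largest share of their UMIs in barcodes with 2 or more members.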

Additional observations from a re-analysis of the deposited data

Results flagged for a closer look

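The difference in the share of kept barcodes with 2 or more of the 10 genes ran in opposite directions in the replicates at full depth. It was 12.8 points in replicate 1 (13.8% in metastasis 1, against 1.00% in naive 1) and -2.19 points in replicate 2 (1.32% in the library labelled metastasis 2, against 3.51% in the library labelled naive 2). Thinned to 800 UMIs a barcode, with barcodes under 800 left out, the direction was the same in both. The shares were 5.54% against 0.631% in replicate 1 and 1.92% (1 of 52 barcodes) against 1.24% (2 of 162) in replicate 2. The difference in the share of microglia-like barcodes with a stray gene also ran in opposite directions, at 28.2 points in replicate 1 (33.1%, against 4.90%) and -10.1 points in replicate 2 (4.17%, against 14.3%), and thinned it still did, at 20.3% against 2.08% and 2.08% against 5.41%. The difference between the replicates was not tested, and the replicate number, the sequencer and the libraries whose Rhox5 counts go against their labels cannot be told apart.

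Barcodes outside the filter also held NK genes. In Cx3cr1-null 5 barcodes that were not kept had 4 or more of the 10 genes, and 2 did in Cx3cr1-heterozygous, against 1 in the library labelled naive 2 and 0 in each of the other 3 libraries. The median mitochondrial share of the barcodes not kept was 20.7% in Cx3cr1-null, 22.8% in Cx3cr1-heterozygous and 20.8% in the library labelled naive 2.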

How the results depend on the processing

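With all deposited barcodes, an alternative chosen after seeing the data, the number with 4 or more genes was 7 in Cx3cr1-null and 4 in Cx3cr1-heterozygous, 3 in the library labelled naive 2 and as before in the other 3 libraries. The share was then 0.7%, 0.4% and 0.3% in those 3 libraries, 2.1% in metastasis 1, 0.3% in naive 1 and 0.1% in the library labelled metastasis 2. The interval of metastasis 1 (1.305 to 3.192) then overlapped that of Cx3cr1-null (0.282 to 1.437). It lay above those of naive 1 and the library labelled naive 2 (0.0619 to 0.874 each). It also lay above those of the library labelled metastasis 2 (0.0025 to 0.556) and of Cx3cr1-heterozygous (0.109 to 1.021). The share with 2 or more genes, asked for at 3 or more, was 4.15% in metastasis 1, 3.29% in Cx3cr1-null and 0.840% in Cx3cr1-heterozygous. Without Ccl5 it was 6.17% in metastasis 1 and 1.26% in Cx3cr1-heterozygous. Thinned to 800 UMIs, with barcodes under 800 left out, it was 5.54% in metastasis 1 and 0.631% in naive 1. It was then 1.92% (1 of 52) in the library labelled metastasis 2 and 1.24% (2 of 162) in the library labelled naive 2, which turns the order within replicate 2. In Cx3cr1-null it was 2.06% and in Cx3cr1-heterozygous 0.435%. Leaving out 1 library at a time, the metastasis minus naive difference ran from -0.940 (without metastasis 1) to 11.6 points, and that of the stray share from -5.43 (without metastasis 1) to 23.5 points. The stray share in metastasis 1 was 43.8% by a marker rule. Thinned, it was 20.3% in metastasis 1, 2.08% in naive 1, 5.41% in the library labelled naive 2, 11.0% in Cx3cr1-null and 4.73% in Cx3cr1-heterozygous; without Ccl5 it was 8.11%, 0.817%, 7.56%, 7.83% and 6.21% in the same libraries. At a mitochondrial limit of 25% it was 50% in metastasis 1 (2 of 4 barcodes, since other microglia clusters stayed unnamed), 14.3% in Cx3cr1-null and 2.94% in Cx3cr1-heterozygous.

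Over kept barcodes edgeR called 100 genes without a filter on low counts and 0 to 41 with a library left out (41 without naive 1). Over microglia-like barcodes it called 60 without the filter and 0 to 337 with a library left out (16 without metastasis 1, 19 without the library labelled naive 2, 337 without the library labelled metastasis 2), and DESeq2 called 1. With a replicate block edgeR called 0 genes over kept and 0 over microglia-like barcodes, against 33 and 91 at an unadjusted p under 0.05, and it changed no call. A crossed pairing, chosen after seeing the data, called 7 genes over kept and 0 over microglia-like barcodes. Gzma was 1 of the 7, higher in metastasis (log2 change 3.13, edgeR adjusted p 0.00899). With 1 library left out at a time the log2 change of Nkg7 ran from -0.55 (without the library labelled metastasis 2) to 2.00, that of Ms4a4b from -0.15 (without metastasis 1) to 0.44, and that of Ccl5 over microglia-like barcodes from -0.51 (without metastasis 1) to 2.67. Ccl5 over kept barcodes was -0.39 with those of 2 or more genes left out. The cause was not tested. Thinning left out 82 of 399 kept barcodes of naive 1 and 24 of 76 of the library labelled metastasis 2, the shallowest libraries. In the library labelled metastasis 2 a share under 1 barcode in 76 cannot be seen, or under 1 in 52 after thinning.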

Other observations

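Among barcodes with only 1 of the 10 genes, 15 had 10 or more UMIs of it. Ccl5 was that gene in 14, among them a carcinoma-like barcode of metastasis 1 with 44 UMIs, a microglia-like barcode of Cx3cr1-heterozygous with 28 and an endothelial-like barcode of Cx3cr1-heterozygous with 16. Xcl1 was that gene in 1, a microglia-like barcode of naive 1 with 16 UMIs. In Cx3cr1-null, 32 of its 35 Xcl1 UMIs lay in 22 barcodes outside the filter.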
